A study of Rattus norvegicus with 3 samples.

Results

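The EphA receptors and ephrin-A ligands are described here in cultured commissural neurons of the rat. The members are 10 genes, 6 receptors (Epha2, Epha3, Epha4, Epha5, Epha7 and Epha8) and 4 ligands (Efna1, Efna3, Efna4 and Efna5), taken by gene symbol from 26353 entries of the deposited table, in which each has 1 entry. The RNA came from commissural neurons, whose axons cross the ventral midline, isolated from the spinal cord of rat embryos at embryonic day 13 and kept for 2 days in vitro. The 3 libraries of polyadenylated RNA form 1 group, with no strain, genotype or treatment named and no control group, so each gene was set against other genes of its own library. Values are FPKM as the authors deposited them, a level per length of transcript and per amount of mapped fragments, by which different genes were compared. A bias of a gene that recurs in every library would not show in the intervals. The labels do not say whether the libraries stem from separate cultures or litters. The p-values therefore cover the spread between these samples alone, and that spread may be technical.

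Eph receptors are tyrosine kinases of the cell surface that bind ephrins on neighbouring cells, so the signal needs contact between cells. EphA receptors mostly bind ephrin-A ligands, which are held in the membrane by a lipid anchor, and the receptor's signal usually makes a growth cone withdraw. The ligand can also signal back into the cell that carries it. In the spinal cord these genes guide motor axons in the limb and keep axons on their side of the midline.

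The cultures expressed both sides of this system. In order of mean level, Efna3 had 31.5 FPKM, Efna5 22.4, Epha4 11.6, Epha3 10.5, Epha7 7.41, Epha5 6.31, Efna4 6.02, Epha8 1.94, Epha2 0.940 and Efna1 0.133 FPKM. Of the 10 members, all but Epha2 and Efna1, that is 8, lay above 1 FPKM by limma (one-sided, Benjamini-Hochberg adjusted p under 0.05). The adjustment covered all 17611 entries above 0 in at least 1 library, of which 63.7% passed. The median level of the 10 members was 6.86 FPKM, against 4.81 FPKM over all entries tested.

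**Figure D1:**
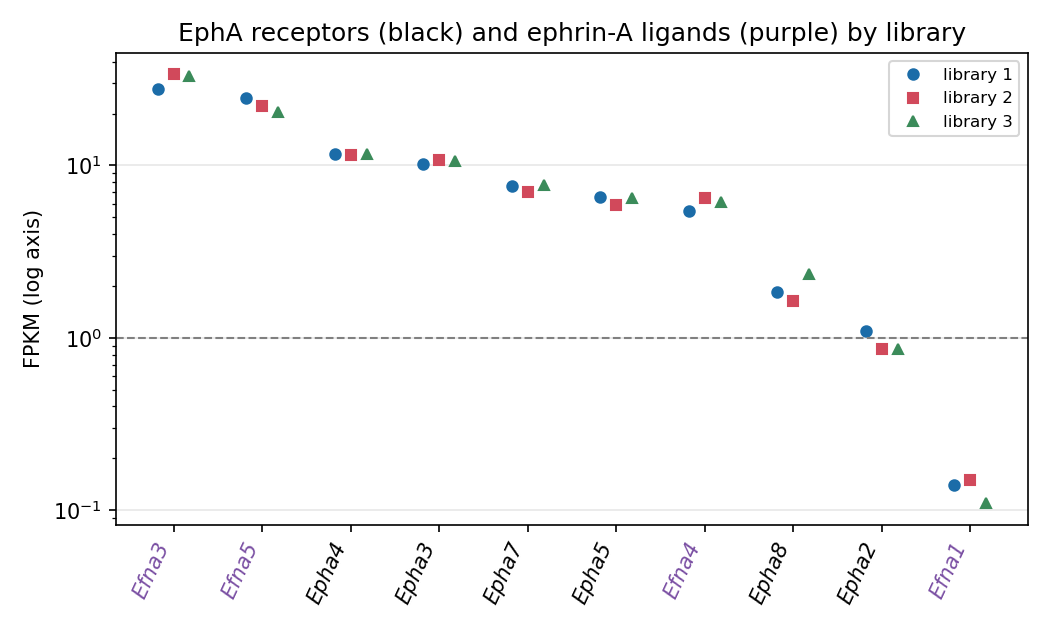
FPKM of the 10 members in libraries 1, 2 and 3 on a log axis, ordered by mean, with the level of 1 FPKM as a dashed line; 8 members lie above the line in every library, Epha2 lies around it and Efna1 below it.

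The marker genes of the label were present, and so were those of progenitors. The 6 neuronal markers summed to between 2085 and 2311 FPKM per library and the 4 commissural markers to between 171.8 and 252.1, and each of these 10 markers passed 1 FPKM. The 6 progenitor markers also passed, with sums of 928 to 1183 FPKM. Most of that sum was Fabp7 (mean 564 FPKM) and Vim (398), while Sox2 had 39.3, Hes5 16.1, Nes 3.15 and Pax6 2.86. Erythroid markers summed to 57.1, 30.5 and 12.5 FPKM in libraries 1, 2 and 3 (1 of the 2 reported passed, Hba1). Macrophage markers summed to between 7.56 and 11.7 FPKM (2 of 5 passed) and mesenchyme markers to between 2.82 and 3.71 (1 of 5). Those of endothelium summed to between 0.44 and 0.55 (0 of 6 passed by limma, and 0 had an unadjusted p under 0.05). The 3 matched motor neuron markers summed to at most 0.05 FPKM, with Mnx1 and Isl2 listed at 0. In such whole cultures, fewer cells of a type and less RNA per cell cannot be told apart, and which cells carried each member was not tested. Library 2 had the lowest sum of commissural markers, at 171.8 FPKM against 245.4 and 252.1, through Robo3, Dcc and Cntn2. The fourth, Boc, was not lower there (15.0, 15.7 and 15.1 FPKM in libraries 1, 2 and 3). The progenitor sum was highest in library 2, at 1183 FPKM against 928 and 958. So was the neuronal sum, at 2311 FPKM against 2151 and 2085.

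Of the receptors, 4 lay between 5.86 and 11.6 FPKM in every library and the other pair between 0.86 and 2.33. Epha4, which binds ephrins of both classes and acts at the spinal midline, had 11.6, 11.5 and 11.6 FPKM in libraries 1, 2 and 3. Epha3, a receptor of axial motor axons, had 10.2, 10.7 and 10.6 FPKM. Epha4 was the higher of this pair in all 3 libraries and their ranges did not overlap, but the gap was small.

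Epha7, which also has a form without the kinase, had 7.57, 6.97 and 7.70 FPKM, a mean of 7.41 ± 0.389 (SD, n = 3). Epha5, known from the mapping of retinal and forebrain axons, had 6.56, 5.86 and 6.51 FPKM. Both were lowest in library 2, and Epha7 was above Epha5 in each library. Of the summed level of the member EphA receptors, Epha3 and Epha4 together held 56.0% to 59.2%. With Epha5 and Epha7, the 4 held 91.9% to 93.4%.

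Epha8, a receptor of midbrain neurons, had 1.85, 1.63 and 2.33 FPKM and lay above 1 FPKM (limma, Benjamini-Hochberg adjusted p = 1.56e-04). Epha2, known mainly from epithelia and early embryos, had 1.10, 0.86 and 0.86 FPKM. It lay on both sides of 1 FPKM (limma, unadjusted p = 0.721, Benjamini-Hochberg adjusted p = 1), and it passed a level of 0.5 FPKM (adjusted p = 5.70e-04). Relative to their means, these lower receptors varied more between libraries (SD of 18.5% of the mean for Epha8 and 14.7% for Epha2) than Epha4 (0.491%) or Epha3 (2.41%).

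The ligands covered a wider range than the receptors. Efna3, a ligand of EphA4 in the hippocampus, had 27.8, 33.7 and 33.0 FPKM. Efna5, the classical repellent of retinal axons in the midbrain, had 24.5, 22.2 and 20.4 FPKM. Efna3 was lowest in library 1, where Efna5 was highest, and their ranges did not overlap. Efna4, a ligand also known from the sutures of the skull, had 5.45, 6.49 and 6.12 FPKM. Efna1, known from endothelium and epithelia, had 0.14, 0.15 and 0.11 FPKM. The endothelial markers were also near 0, and a link between these values was not tested. Of the summed level of the member ligands, Efna3 and Efna5 together held 89.4% to 90.3% and Efna1 0.184% to 0.242%. That sum leaves out Efna2, an ephrin-A ligand that is not a member, which had 16.0, 17.7 and 15.6 FPKM. With Efna2 counted, each of these shares would be smaller.

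Efna1, Efna3 and Efna4 are consecutive protein-coding genes on rat chromosome 2 in the RefSeq annotation of assembly GRCr8, yet they lay far apart in level. Within each library, Efna3 had 199 to 300.4 times the FPKM of Efna1, and the difference of Efna1 from Efna3 in log2(FPKM + 0.1) was -7.08 (95% interval -7.55 to -6.61). That pseudocount understates the differences of low genes. Efna4 had 38.9 to 55.6 times the FPKM of Efna1 and Efna3 5.10 to 5.40 times that of Efna4. The nearest protein-coding gene beside Efna1, the sugar transporter gene Slc50a1, had 2.50, 3.47 and 3.48 FPKM, and the one beside Efna4, the protease gene Adam15, 3.25, 3.64 and 3.52. Efna1 was therefore the lowest gene of this stretch and Efna3 the highest in every library.

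**Figure D2:**
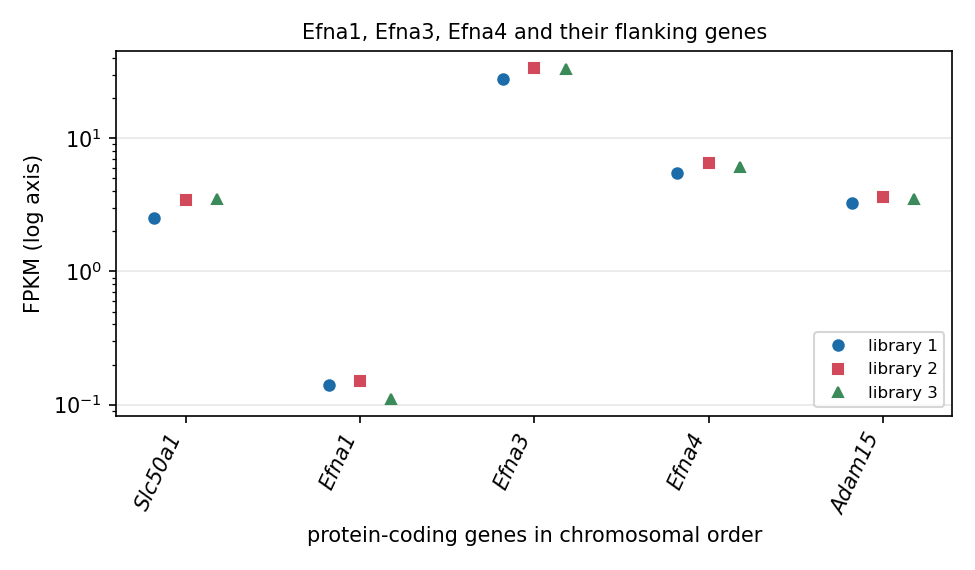
FPKM on a log axis of Slc50a1, Efna1, Efna3, Efna4 and Adam15, in their order on rat chromosome 2, in libraries 1, 2 and 3; Efna1 lies between 0.11 and 0.15 FPKM and its neighbour Efna3 between 27.8 and 33.7.

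The promoters of these 3 neighbours are shown because they can be set beside the levels of the lowest member, the highest member and one in between. Each runs from 250 bases before to 50 bases after the RefSeq start in GRCr8, on the minus strand, in lower case with every CG dinucleotide in capitals. The FPKM values come from build rn6, and no coordinates were carried between the builds.
Efna1, chr2:176986772-176987071: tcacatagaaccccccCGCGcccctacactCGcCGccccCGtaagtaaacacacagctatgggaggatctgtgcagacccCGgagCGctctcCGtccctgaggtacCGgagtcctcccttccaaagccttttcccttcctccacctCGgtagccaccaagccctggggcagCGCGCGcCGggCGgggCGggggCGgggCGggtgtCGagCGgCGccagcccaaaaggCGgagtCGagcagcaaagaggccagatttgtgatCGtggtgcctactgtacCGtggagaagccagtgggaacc
Efna3, chr2:177035789-177036088: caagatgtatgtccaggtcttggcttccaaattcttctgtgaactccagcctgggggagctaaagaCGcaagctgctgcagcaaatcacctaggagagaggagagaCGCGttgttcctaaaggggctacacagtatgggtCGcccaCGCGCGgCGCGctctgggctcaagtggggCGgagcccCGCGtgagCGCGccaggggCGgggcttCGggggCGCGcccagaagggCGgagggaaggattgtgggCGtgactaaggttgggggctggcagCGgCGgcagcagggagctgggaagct
Efna4, chr2:177050664-177050963: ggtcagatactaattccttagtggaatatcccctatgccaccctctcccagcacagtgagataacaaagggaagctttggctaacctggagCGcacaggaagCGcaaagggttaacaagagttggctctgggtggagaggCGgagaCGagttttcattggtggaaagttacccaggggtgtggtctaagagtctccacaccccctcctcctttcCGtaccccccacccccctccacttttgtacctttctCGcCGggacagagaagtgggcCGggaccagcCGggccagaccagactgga

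The promoters of Efna1 and Efna3 were alike in base composition, and a link of composition to level was not tested. Efna1 held 25 CG dinucleotides and 66.0% G and C, and Efna3 22 and 64.3%. Efna4 held 9 and 56.3%. The GC box GGGCGG, counted on both strands with overlapping matches kept, occurred 5 times in Efna1 (4 on the strand shown and 1 on the other), 3 times in Efna3 and 0 times in Efna4. At least 1 match stood in 33.1% of the 33469 promoters of the same length in the table. Of the 9 members with a promoter there, all but Epha4, 5 held GGGCGG and 0 held TATAAA on either strand, which 14.2% of all promoters did. The CG count of the 9 lay above the median of 7 of all promoters, from 8 in Epha5 to 51 in Epha8, a gene with 1.94 FPKM. A match of letters is a description and not a site.

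All 45 pairs of members were compared by the log2 difference within each library. Of these, 42 differed (limma with Benjamini-Hochberg adjustment over the whole table, the larger adjusted p of the fits with each gene as reference), and 93.3% of all pairs of a member with any other entry did, so the count says nothing particular about these genes. With a variance prior from pairs of entries that share no gene, 43 of the 45 differed, as did 89.1% of those pairs. The 42 were 13 of 15 receptor pairs, 6 of 6 ligand pairs and 23 of 24 pairs of a receptor with a ligand. Along the order of levels, the steps from Efna5 to Epha4, from Epha3 to Epha7, from Efna4 to Epha8, from Epha8 to Epha2 and from Epha2 to Efna1 passed, in the same direction in all 3 libraries. Efna5 exceeded Epha4 by 1.92-fold on the log2(FPKM + 0.1) scale (95% interval 1.59 to 2.31) and Epha3 exceeded Epha7 by 1.41-fold (1.21 to 1.64). Efna4 exceeded Epha8 by 3.03-fold (2.26 to 4.05), Epha8 exceeded Epha2 by 1.95-fold (1.39 to 2.73) and Epha2 exceeded Efna1 by 4.44-fold (3.09 to 6.40). Tested against a margin of 1.5-fold, the steps from Epha3 to Epha7 and from Epha8 to Epha2 did not pass (limma, adjusted p = 1 and 0.0746).

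The other neighbours were close. Efna3 was the higher of Efna3 and Efna5 in 3 of 3 libraries, with a fold of 1.41 (1.17 to 1.69) and an adjusted p of 2.70e-04 by limma, which rose to 0.0850 without library 3 and to 0.899 against the 1.5-fold margin. Epha4 and Epha3 did not differ past the threshold, with a fold of 1.10 (0.986 to 1.23, limma, Benjamini-Hochberg adjusted p = 0.0820). Epha7 and Epha5 did not either, with a fold of 1.17 (0.993 to 1.38, adjusted p = 0.0642). Without library 2 both of these pairs passed, with adjusted p of 0.0368 and 0.0225. Epha5 and Efna4 had a fold of 1.05 (0.881 to 1.25, adjusted p = 0.596), and Epha5 was the higher in 2 of 3 libraries. Of pairs that are not neighbours, Epha7 exceeded Efna4 by 1.23-fold (1.04 to 1.45, adjusted p = 0.0206), a call lost without library 1 (0.261) and without library 3 (0.140).

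**Figure D3:**
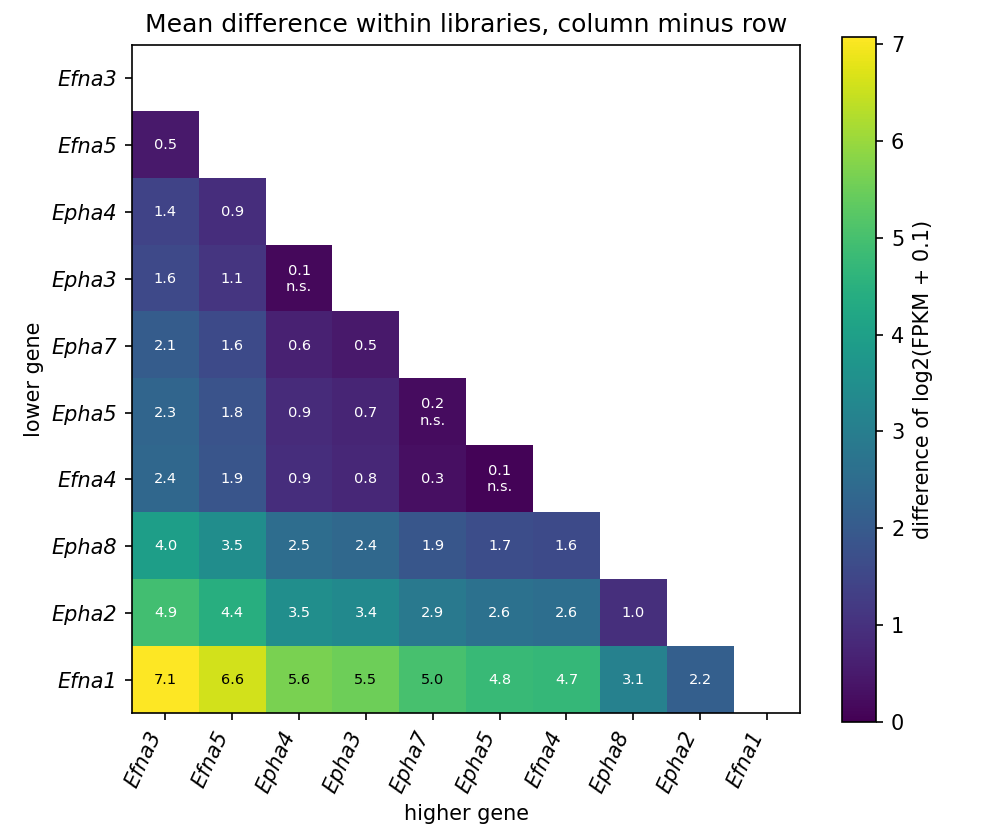
Mean difference in log2(FPKM + 0.1) within libraries between the gene of each column and the lower gene of each row, members ordered by mean; n.s. marks the 3 pairs that did not pass limma's test, Epha4 with Epha3, Epha7 with Epha5 and Epha5 with Efna4.

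Summed over the members, ligand RNA exceeded receptor RNA in every library. The 6 receptors summed to 38.9, 37.5 and 39.6 FPKM in libraries 1, 2 and 3 and the 4 ligands to 57.9, 62.5 and 59.7. The ligand sum was 1.49, 1.67 and 1.51 times the receptor sum. The sums are given as values and were not tested. The sums also turn on which genes are counted. The table holds another ligand, Efna2, at 16.0, 17.7 and 15.6 FPKM, with which the mean ligand sum rises from 60.0 to 76.4 FPKM. The other receptors Epha10 (1.30 ± 0.386 in the higher of its 2 entries), Epha6 (0.630 ± 0.139) and Epha1 (0.0400 ± 0.0173 FPKM, SD, n = 3) add little, and the receptor mean moves from 38.7 to 40.7.

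The related EphB and ephrin-B class was higher in sum, in the same libraries. Its receptors, which bind transmembrane ligands, summed to 74.9, 75.0 and 73.9 FPKM, 1.87 to 2.00 times the EphA sum. Its ligands summed to 101.0, 111.3 and 103.0 FPKM, 1.73 to 1.78 times the sum of the member ephrin-A ligands. That ephrin-A sum leaves out Efna2. With Efna2 it was 73.89, 80.19 and 75.25 FPKM, so the ratio is smaller, with the ephrin-B sum still the higher in every library. All 8 of its genes lay above 1 FPKM by limma, beside 63.7% of all entries tested. At a level of 5 FPKM, 6 of these 8 passed and 7 of the 10 members did. Of the 30 pairs of an EphA with an EphB receptor, 28 differed, with the EphA gene lower in 19 and higher in 9, beside 93.3% of all pairs of a member with any other entry, so the count shows nothing particular to these classes. Ephb2 exceeded Epha4 by 3.24-fold (2.88 to 3.65) and Ephb1 exceeded it by 1.67-fold (1.47 to 1.90), while Epha4 exceeded Ephb3 by 2.18-fold (1.90 to 2.50). Epha8 with Ephb4 and Epha3 with Ephb6 stayed short of the threshold (limma, adjusted p = 0.0962 and 0.164).

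Of the 12 pairs of ligands across the classes, 10 differed, with the ephrin-A gene lower in 9, and this share is not above the 93.3% of all pairs of a member with any other entry. Efnb3, a ligand of the spinal midline that EphA4 also binds, exceeded Efna3 by 1.37-fold (1.19 to 1.58). Efna3 exceeded Efnb1 by 1.22-fold (1.06 to 1.41), the 1 pair in which the ephrin-A gene was higher. Efna3 and Efnb2 did not differ past the threshold (fold of 1.15 for Efnb2 over Efna3, 0.997 to 1.33, limma, Benjamini-Hochberg adjusted p = 0.0588), nor did Efna5 and Efnb1 (adjusted p = 0.139).

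**Figure D4:**
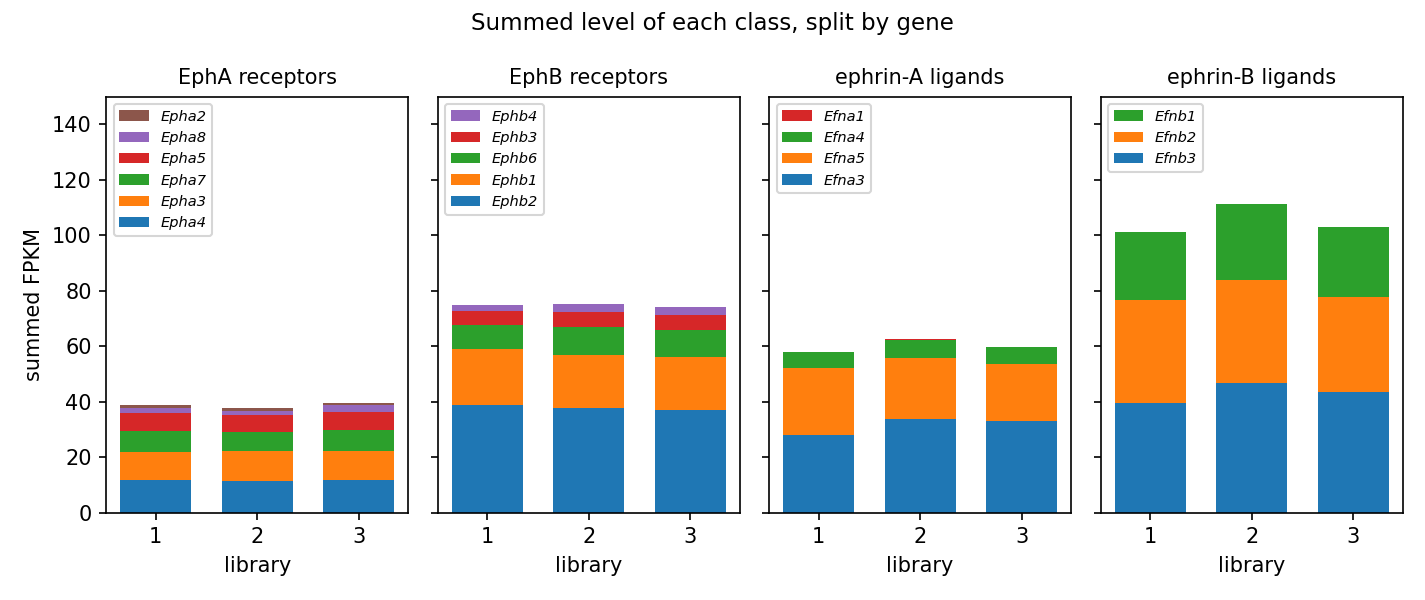
Summed FPKM in libraries 1, 2 and 3 of EphA receptors, EphB receptors, ephrin-A ligands and ephrin-B ligands, each bar split by gene. The A class shows the members only, without Efna2. The EphA bars reach 37.5 to 39.6 and the ephrin-A bars 57.9 to 62.5, below the B class of the same kind.

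Genes known to work with this system were mostly expressed. Of 47 genes listed by role and reported here, 37 lay above 1 FPKM, against 63.7% of all entries tested, and their median level was 13.3 FPKM. Of the 29 that act behind the receptor, 24 passed. Among these are ephexins, exchange factors that pass the signal to Rhoa or its relatives, and those listed were low. Ngef had 1.22, 1.16 and 1.26 FPKM and stayed short of the threshold (limma, adjusted p = 0.0623), while Arhgef15, Arhgef16 and Arhgef19 had means of 0.0533, 0.0167 and 0.10 FPKM. Other links between EphA receptors and the cytoskeleton were well above 1 FPKM. Chn1, a brake on Rac that EphA4 uses to turn axons, had 31.0, 35.3 and 30.8 FPKM. Vav2 (31.5 ± 0.251 FPKM) and Vav3 (21.2 ± 0.857, SD, n = 3) are exchange factors that take part in the uptake of ligand and receptor, while their blood cell relative Vav1 had 0.917 ± 0.341 and did not pass. The adaptor genes Grb2 and Grb10 had 71.8 ± 6.15 and 57.7 ± 4.82 FPKM. Rhoa itself had 129 ± 10.3 FPKM and its kinases Rock1 and Rock2 15.4 ± 3.29 and 12.4 ± 0.845. Rock1 was lowest in library 2, at 11.6 FPKM against 17.4 and 17.3.

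Of 7 genes for processing and removal, 6 passed. Adam10, a protease that cuts ephrins from the membrane, had 30.1, 30.5 and 30.2 FPKM. Ptpn1, a phosphatase of receptor tyrosine kinases, had 24.6 ± 1.11 FPKM. Ptpro, a phosphatase that acts on Eph receptors, had 17.5, 23.1 and 10.2 FPKM, the widest spread of those that passed. Mmp9, a secreted protease, had 0.993 ± 0.305 and did not pass. Of 7 partners of ephrin-A in reverse signalling, 6 passed: the kinase gene Fyn had 121 ± 8.0 FPKM, Prnp 43.4 ± 3.75, Ntrk2 22.8 ± 2.38, Gfra1 13.6 ± 1.35, Ngfr 9.01 ± 0.647 and Ret 3.06 ± 0.137, while Cav1 had 1.26 ± 0.352. Of the 4 other family genes, 1 passed, Efna2.

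**Figure D5:**
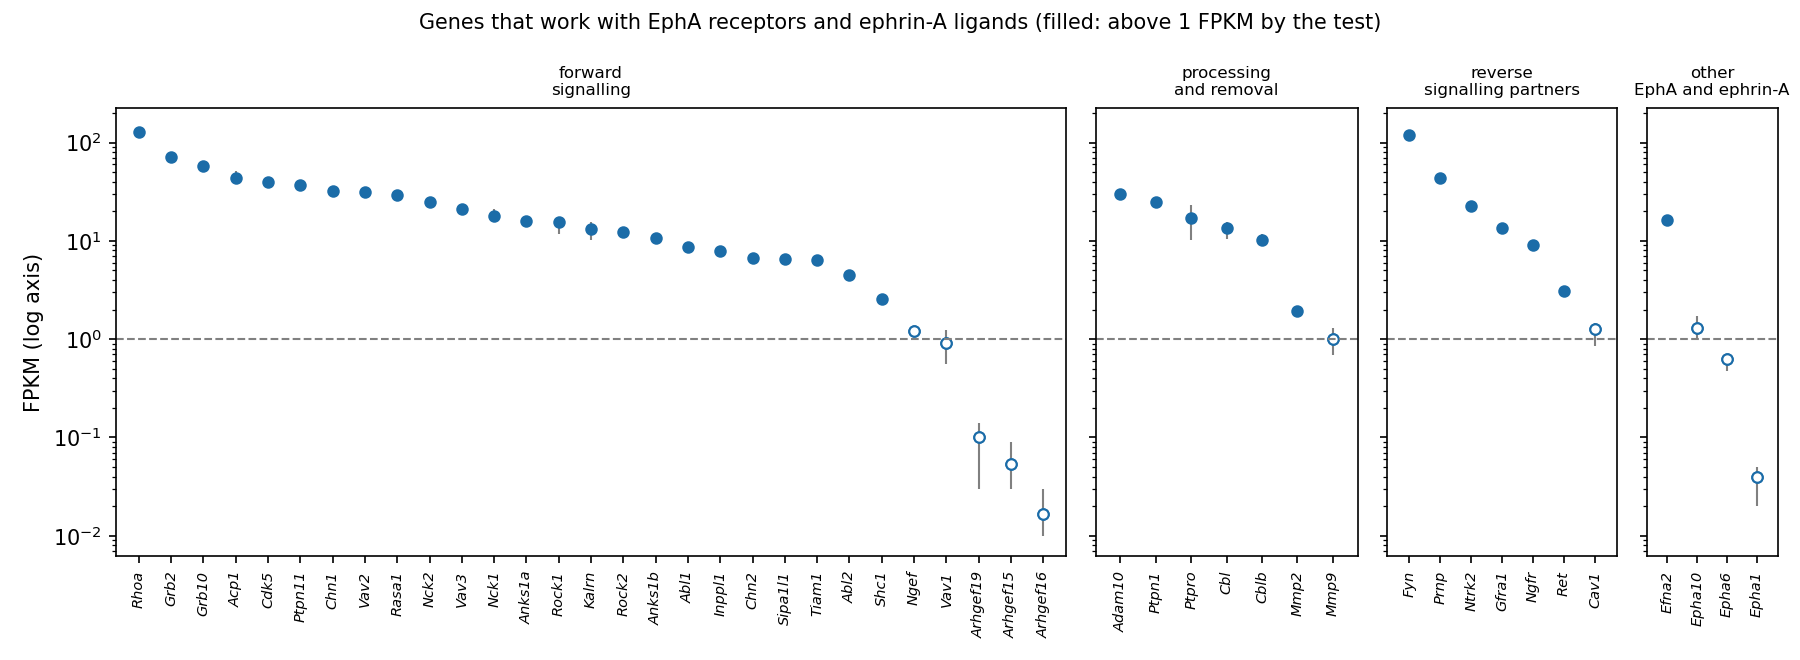
Mean FPKM on a log axis of 47 genes by role, with lines from the lowest to the highest library and the level of 1 FPKM dashed. The 37 filled genes passed the test, and the open ones include the 4 listed ephexin genes Ngef, Arhgef15, Arhgef16 and Arhgef19.

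The receptors were low in library 2 relative to the median entry. Over the 8695 entries with a mean of at least 5 FPKM, the median of library 2 was 0.14 above the mean of libraries 1 and 3 in log2(FPKM + 0.1), and the changes here are relative to that shift. All 6 receptors lay below it in library 2, from -0.10 for Epha3 and -0.15 for Epha4 to -0.30 for Epha2 and -0.47 for Epha8. The lower quartile of these entries was at -0.14, and 3 of the 4 receptors with a mean of at least 5 FPKM lay below it. Epha2 and Epha8 have lower means and are not among the entries compared. Efna1, Efna3 and Efna4 lay close to the shift (0.01, 0.01 and 0.02), and Efna5 at -0.15. Whether receptors and ligands differ in this was not tested. Library 2 was examined because it had been seen to stand apart in long transcripts. In library 2, 3 of the 4 commissural markers were lower. The progenitor sum was higher there, at 1183 FPKM against 928 and 958. The neuronal sum was 2311 FPKM there against 2151 and 2085. These marker values are FPKM as deposited, without the shift of 0.14 subtracted, and no rise of the neuronal sum beyond that shift is claimed. The part of transcript length and of the marked cells in these values was not tested.

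By the smallest distance between centred log2 values over the 3 libraries, the entries most like Efna3, the highest member, were Tmem181, Rab31 and Ndufc1, and 2514 of 8363 named entries with a mean of at least 5 FPKM lay within 0.1 of it. Those most like Epha8, the most variable member relative to its mean, were Gad1, Hmx3 and Hmbox1, among 148 within that distance. With 3 libraries, such a likeness describes these values only.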

How the data were processed

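The values are FPKM, deposited by the authors in 1 table that covers the 3 libraries. Per the labels' protocols, stranded polyadenylated libraries were sequenced with paired reads of 50 bp, and STAR, Trimmomatic 0.22, FastQC and build rn6 are named, per the submitters' processing notes. Not given in the sources used here are the tool for FPKM, its annotation and its handling of strand and of reads with several hits, so loci that overlap a member (a long non-coding RNA for Efna4, Efna5, Epha4 and Epha7 in GRCr8) could share its reads. FPKM gives no absolute depth, so no counts or counting intervals were computed. In libraries 1, 2 and 3 the values summed to 25032100, 19897900 and 26236600 FPKM. Leaving out entries that exceed 10000 FPKM in any library, they summed to 433285, 477484 and 430187. Between 19 and 42 of 8695 entries had identical values in a pair of libraries, which were therefore kept as 3 samples.

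Levels and within-library differences were tested as log2(FPKM + 0.1) with limma 3.58.1 (R 4.3.3, robust prior, mean-variance trend). Each member and B-class gene served in turn as reference against all entries. In such a fit every difference shares the deviations of the reference, so a prior from pairs of entries sharing no gene was added after seeing the data. Tests were checked on simulated data. The members and lists were chosen with earlier results of these data known. All members are named, and of other genes at least the 3 highest and the lowest of each role or those a result turns on; Slc50a1 and Adam15 were taken as nearest neighbours. All 47 pathway genes reported here matched a symbol, and some list genes are not reported here; Epha10 had 2 entries, of which the higher was used. Of the marker lists, Slc18a3 matched no symbol. The floor plate list (0.06 to 0.15 FPKM in sum), the roof plate list (1.39 to 1.90) and the erythroid list (12.5 to 57.1) were also summed. Promoters are those of RefSeq, GRCr8. Alternatives were other pseudocounts, scalings, filters, priors, levels and margins, and each library left out. Figures used matplotlib 3.10.9 and pandas 2.3.3.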

Additional observations from a re-analysis of the deposited data

How the results depend on the processing

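The count of members above 1 FPKM was 8 under other pseudocounts, scalings, filters and priors and without each library, 9 at a level of 0.5 FPKM and 7 at 5 FPKM. At 0.5 FPKM Epha2 lay 0.79 above the level in log2, and at 5 FPKM Epha8 lay at -1.34. The EphB and ephrin-B count was 6 at 5 FPKM and otherwise 8, and the count of 47 pathway genes ran from 33 at 5 FPKM to 42 at 0.5 FPKM. The 42 member pairs became 40 to 44 when a library was left out, 41 with a plain prior, 36 with a margin of 1.5-fold, and 43 with the prior from pairs sharing no gene, under which Epha7 and Epha5 passed (limma, Benjamini-Hochberg adjusted p = 0.0402) and 89.1% of such pairs did. With that margin, 6 pairs were lost: Efna3 with Efna5 (adjusted p = 0.899), Epha8 with Epha2 (0.0746), Epha3 with Epha5 (0.141), Epha4 with Epha7 (0.366), and Epha3 and Efna4 each with Epha7 (1). The difference of Epha5 from Efna4 ran from -0.029 without library 1 to 0.18 without library 2. The 38 of 42 pairs across classes ran from 29 at the 1.5-fold margin to 39. With the other family genes, an alternative added after seeing the data, the mean sums moved to 40.7 FPKM for receptors and 76.4 for ligands. The median deviation of members in library 2, before subtracting the shift of all entries, was -0.01, and 0.35 with libraries rescaled to a common sum. That sum comes mostly from entries that exceed 10000 FPKM, without which library 2 had the highest sum and not the lowest. No paired analysis was possible because all libraries form 1 group, so no groups share replicate numbers; differences between genes were taken within each library throughout. Values near 0, such as those of Efna1, have 2 decimals in the table, which limits their precision.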
